A study of Mus musculus with 16 samples.

Results

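The genes described here encode the early complement components made outside C1q, namely C1s (now C1s1), C1ra, C1rl, C2, C3, C4b, Cfb, Cfd and Serping1. Every probe whose symbol on the array platform or current symbol was one of these 9 was taken. Of the 9 genes, 7 had a named probe (9 probes, with a pair each for C1s and C1rl), among 16593 genes with a named probe in all. No probe was named for C3 or Cfd in the probe table used here, and the 2 genes are not analysed here. The single C1ra probe was not detected on any of the 16 arrays, so 6 genes with 8 probes were tested, among 10438 genes tested.

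RNA was measured on Illumina mouse arrays in trabecular osteoblasts (TOs) grown out of limb bones of C57BL/6 embryos taken 1 day before birth; the labels name both femur and tibia. The 8 conditions combined genotype (Pthrp+/+ wild type or Pthrp-/-, in which the gene for parathyroid hormone-related protein is ablated), gravity (1g, or 0g simulated in a rotating vessel) and treatment (untreated, or given the peptide PTHrP1-36 daily, 2 h each day at 10 nM), with 2 arrays each. All cells had been pre-attached to microcarriers and cultured for 6 days, and RNA was collected from duplicate experiments. Rotation and vessel differ together with gravity, and peptide and the handling of treatment go together, so these cannot be told apart. Cells of the genotypes came from different embryos, so genotype and cell preparation cannot be told apart either.

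Complement is a cascade of blood proteins that tags cells and microbes for removal. In the classical pathway, C1q carries the proteases C1r and C1s, activated C1s cleaves C4 and C2, and the fragments form the enzyme that cleaves C3. In the alternative pathway factor B, cut by factor D, supplies the protease of that enzyme. Most circulating complement comes from the liver, but macrophages, fibroblasts and osteoblasts also make several components, and interferons and inflammatory cytokines raise many of them.

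Levels are log2 intensities after background correction and quantile normalization, on which a step of 1 is a doubling. A probe counts as detected on an array where its detection p was under 0.05, and over the arrays detection began at a log2 level of 4.79 to 5.06. Differences are from limma and carry a standard error (SE), and a gene was called where a probe had an adjusted p under 0.05 over all 15279 tested probes. With 2 arrays per condition the spread was pooled over the 8 conditions. Level is compared within a probe, never between probes.

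Some features of the whole series touch these results. Replicate arrays correlated at r of 0.9891 to 0.9971 over the tested probes. On each array between 12161 and 13560 probes were detected. No probe is named for the ablated gene (now Pthlh), so the genotype labels could not be checked on it. Over the 15279 tested probes the response to 0g correlated negatively between the genotypes, with r of -0.342 untreated and -0.248 treated between comparisons that share no array. Each test that sets the gravity response of one genotype against the other is therefore also given with the gravity labels of the Pthrp-/- arrays exchanged. Macrophage markers were also far higher in Pthrp+/+ than Pthrp-/- TOs: the summed linear level of 20 tested markers was 88800 to 122000 on Pthrp+/+ arrays and 1120 to 1880 on Pthrp-/- arrays. Of these, 9 were not detected on any Pthrp-/- array, and Cybb and Msr1 were not detected on any array. Of the osteoblast markers 10 were tested, Sparc and Col1a1 among them, and Dlx5 and Dmp1 were not detected. In bulk cultures, fewer cells of a type and less RNA per cell cannot be told apart.

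**Figure D1:**
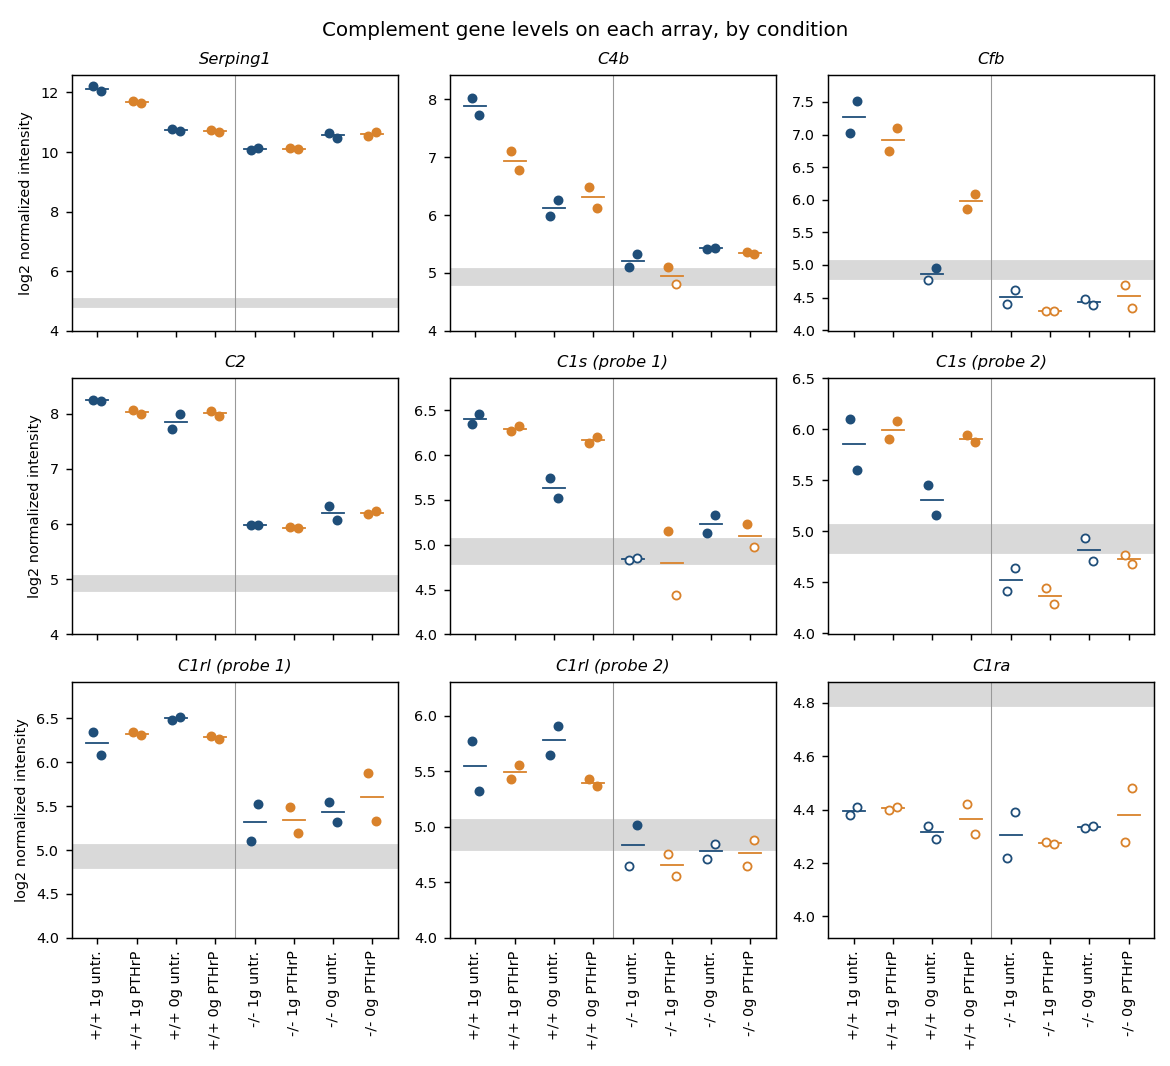
Log2 normalized intensity (vertical axis, its own range in each panel) of the 9 complement gene probes on each of the 16 arrays, by condition (horizontal axis: genotype, gravity, untr. for untreated and PTHrP for treated with PTHrP1-36). Points are arrays, open where the probe was not detected, short lines are means of the 2 arrays and the grey band is the level at which detection began (4.79 to 5.06); Serping1 was detected on all 16 arrays, Cfb on 7 Pthrp+/+ arrays and no Pthrp-/- array.

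Loss of Pthrp was accompanied by lower levels of all 6 tested complement genes. In untreated TOs at 1g, C4b, C2 and Serping1 were 4.08-fold to 6.34-fold lower than in Pthrp+/+, C1rl was 1.86-fold lower by its first probe, and Cfb and C1s fell below detection, so that only bounds on their falls can be given. All 6 were called lower, against 22.9% of the 10438 tested genes called lower in the same comparison and 33.0% called higher. The count is partly fixed by the detection filter, because Cfb and the second C1s probe entered the test through Pthrp+/+ arrays alone. The same 6 were called lower in treated TOs at 1g (23.2% of all genes lower).

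Cfb encodes factor B, the protease precursor of the alternative pathway. At 1g the untreated Pthrp+/+ arrays read 7.03 and 7.52 and the untreated Pthrp-/- arrays 4.40 and 4.61. No Pthrp-/- array of any condition reached detection (4.29 to 4.70), so the fall is a bound: Cfb was at least 4.92-fold lower in untreated and at least 4.03-fold lower in treated Pthrp-/- TOs at 1g (adjusted p = 1.95e-08 and 3.61e-08). Bounds are set against the level at which detection began. The adjusted p beside a bound, here and below, is that of the fitted difference, which uses the readings below detection. The bounds themselves were not tested.

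C4b encodes the component whose fragment attaches to the target surface. Untreated Pthrp+/+ arrays at 1g read 8.03 and 7.73, and the Pthrp-/- arrays read 5.10 and 5.33, close to the detection level. C4b was detected on 7 of 8 Pthrp-/- arrays. The difference was -2.67 ± 0.17 (SE) on the log2 scale, a level 6.34-fold lower (adjusted p = 1.49e-08). C4a, a near-identical copy annotated as a transcribed pseudogene, could share signal with C4b; its own probe was not detected on any array.

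C2 encodes the protease that joins the C4 fragment. Its levels at 1g were 8.25 and 8.24 in untreated Pthrp+/+ TOs and 5.98 and 5.99 in untreated Pthrp-/- TOs, so the genotypes were far apart and the replicates close. C2 was 4.78-fold lower (-2.26 ± 0.11, adjusted p = 1.63e-09) and was still detected on all 8 Pthrp-/- arrays, at 5.93 to 6.33.

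Serping1 encodes the C1 inhibitor, the serpin that shuts off C1r and C1s. The untreated Pthrp+/+ arrays at 1g read 12.20 and 12.06 and the Pthrp-/- arrays 10.08 and 10.12. The difference was -2.03 ± 0.10, a level 4.08-fold lower (adjusted p = 1.39e-09), and Serping1 was above 10 on the log2 scale on all Pthrp-/- arrays (10.08 to 10.68).

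C1s and C1rl were also lower. C1s is the protease of C1 that cleaves C4 and C2. Its first probe read 6.35 and 6.46 in untreated Pthrp+/+ TOs at 1g and 4.83 and 4.85, below detection, in untreated Pthrp-/- TOs, a level at least 2.7-fold lower (adjusted p = 8.53e-06). Its second probe read 6.10 and 5.60 against 4.41 and 4.64, at least 1.83-fold lower (adjusted p = 1.45e-05), and was detected on 8 of 8 Pthrp+/+ and 0 of 8 Pthrp-/- arrays. The first C1s probe was detected on 4 of 8 Pthrp-/- arrays. C1s2, a close copy of C1s1 whose transcripts could share signal, is given below with the other complement genes.

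C1rl encodes a protease related to C1r. Its first probe read 6.35 and 6.08 in untreated Pthrp+/+ TOs at 1g and 5.10 and 5.53 in untreated Pthrp-/- TOs and was detected on all 16 arrays. C1rl was 1.86-fold lower by this probe (-0.90 ± 0.18, adjusted p = 0.00121) and 1.64-fold lower by the second (-0.71 ± 0.17, adjusted p = 0.0031). The call of the second probe was lost without the first untreated Pthrp+/+ array at 1g (-0.48, adjusted p = 0.0517). C1ra, the protease that activates C1s, read 4.22 to 4.48 and was below detection throughout.

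At 0g the genotype difference was smaller for most of these genes. C1rl, C1s, C2 and C4b were called lower in untreated Pthrp-/- TOs (4 of 6, against 16.2% of all genes) and these 4 with Cfb in treated TOs (5 of 6, against 16.0%). C2 was lower by -1.66 ± 0.11 untreated and -1.80 ± 0.11 treated. Untreated C1s and C4b rested on less: the C1s call was that of the second probe, below detection in Pthrp-/- TOs and at least 1.25-fold lower (adjusted p = 0.0391), and was lost without any of 4 arrays (adjusted p = 0.25 without the first untreated Pthrp+/+ array at 0g) and under 5 of the processing alternatives (adjusted p = 0.0567 to 0.166). C4b (-0.70 ± 0.17, adjusted p = 0.00666) was lost without the second of those Pthrp+/+ arrays (-0.56, adjusted p = 0.0547) and with the authors' normalized values (adjusted p = 0.0865). In treated TOs C1rl was lower by -0.68 ± 0.18 by the first probe and at least 1.38-fold lower by the second, which was below detection on both treated Pthrp-/- arrays at 0g (adjusted p = 0.0109). The first probe's call was lost without the second treated Pthrp-/- array at 0g (-0.41, adjusted p = 0.155), the second probe's without the first (adjusted p = 0.0922) or with the authors' values (adjusted p = 0.0642), and both without the first treated Pthrp+/+ array at 0g (adjusted p = 0.0629 and 0.0658). Serping1 did not pass in either (-0.19 ± 0.10, adjusted p = 0.178, and -0.10 ± 0.10, adjusted p = 0.505), but was called lower in untreated TOs with the authors' values (-0.19, adjusted p = 0.0402). Its untreated 0g arrays read 10.78 and 10.71 in Pthrp+/+ and 10.63 and 10.48 in Pthrp-/- TOs. With the gravity labels of the Pthrp-/- arrays exchanged it was lower in both (-0.64, adjusted p = 0.000282, and -0.60, adjusted p = 0.000342). For Cfb in untreated TOs at 0g the difference was -0.42 ± 0.18 (adjusted p = 0.089), with the first Pthrp+/+ array at 4.77 and below detection. Averaged over gravity and treatment, a comparison that does not use the gravity labels, all 6 were called lower (27.5% of all genes were), from -0.80 ± 0.08 for the second C1rl probe to -1.95 ± 0.06 for C2. The summed macrophage marker level was lower in Pthrp-/- TOs under every condition. Untreated, it was 1510 to 1560 against 121000 to 122000 in Pthrp+/+ TOs at 1g, and 1120 to 1230 against 88800 to 89500 at 0g. Its part in the falls of the complement genes was not tested.

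**Figure D2:**
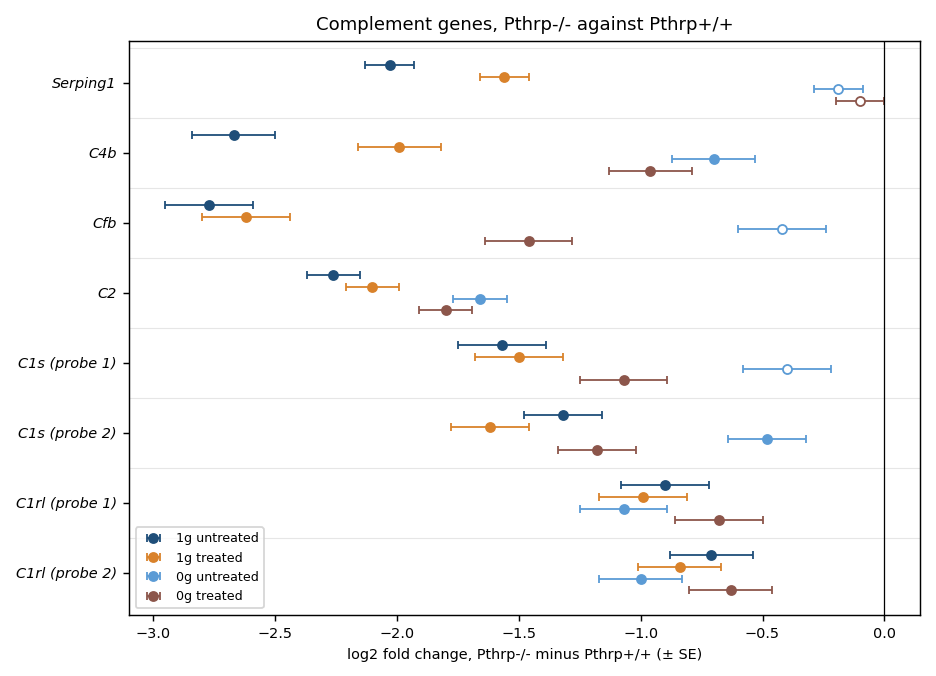
Log2 fold change of Pthrp-/- against Pthrp+/+ TOs (horizontal axis, points with SE bars) for the 8 tested probes (vertical axis) in the 4 settings of gravity and treatment, filled where the adjusted p was under 0.05. Serping1 moves from -2.03 at 1g untreated to -0.19 at 0g untreated, while C2 stays between -2.26 and -1.66; fitted values rest on Pthrp-/- arrays below detection for Cfb and the second C1s probe in all 4 settings, for the first C1s probe at 1g untreated, and for the second C1rl probe in every setting but that one.

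Simulated microgravity lowered most of the same genes in untreated Pthrp+/+ TOs. C1s, C2, C4b, Cfb and Serping1 were called lower at 0g and C1rl was not, 5 of 6 against 14.2% of all genes lower and 14.3% higher. This comparison and that of genotype at 1g share the untreated Pthrp+/+ arrays at 1g, so the values of the 2 comparisons are not independent of each other.

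Cfb fell the most among them. It read 7.03 and 7.52 at 1g and 4.77 and 4.95 at 0g, where the second array was detected and the first was not. The level was 5.32-fold lower (-2.41 ± 0.18, adjusted p = 5.13e-07), so Cfb at 0g stood at the level at which detection began. C4b read 8.03 and 7.73 at 1g and 5.99 and 6.26 at 0g and was 3.37-fold lower (-1.75 ± 0.17, adjusted p = 5.3e-06). Serping1 read 12.20 and 12.06 at 1g and 10.78 and 10.71 at 0g and was 2.61-fold lower (-1.38 ± 0.10, adjusted p = 5.01e-07). In each of these 3 genes the 0g arrays lay below both 1g arrays by more than the replicates differed.

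The falls of C1s and C2 were smaller, and their calls did not survive leaving out some single arrays. C1s read 6.35 and 6.46 at 1g and 5.75 and 5.52 at 0g by the first probe (-0.77 ± 0.18, adjusted p = 0.0072) and 6.10 and 5.60 against 5.45 and 5.16 by the second (-0.55 ± 0.16, adjusted p = 0.0254). The first probe's call was lost without the second 0g array (-0.66, adjusted p = 0.0616) or the second 1g array (-0.72, adjusted p = 0.0556). The second probe's call was lost without the first 1g array (-0.30, adjusted p = 0.282) or the second 0g array (-0.40, adjusted p = 0.176). C2 read 8.25 and 8.24 at 1g and 7.72 and 7.99 at 0g (-0.39 ± 0.11, adjusted p = 0.0256). Its adjusted p was 0.183 without the first 0g array (-0.25), 0.105 without the first 1g array (-0.38) and 0.0978 without the second 1g array (-0.39).

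C1rl did not pass. Its first probe read 6.35 and 6.08 at 1g and 6.48 and 6.52 at 0g, and the second 5.77 and 5.32 against 5.65 and 5.91. The differences were 0.29 ± 0.18 and 0.24 ± 0.17 (adjusted p = 0.309 and 0.368). C1rl and C1s1 lie close to each other on chromosome 6, separated by C1ra among coding genes, and C2 and Cfb are neighbours on chromosome 17. Because C1s was called lower at 0g and C1rl was not (the difference between the 2 genes was not tested), the 250 bases before their start sites are shown, from RefSeq on GRCm38.p6 (C1s1 at chr6:124542360-124542609 on the minus strand, C1rl at chr6:124492863-124493112 on the plus strand), 5′ to 3′ and with no part marked.
C1s1: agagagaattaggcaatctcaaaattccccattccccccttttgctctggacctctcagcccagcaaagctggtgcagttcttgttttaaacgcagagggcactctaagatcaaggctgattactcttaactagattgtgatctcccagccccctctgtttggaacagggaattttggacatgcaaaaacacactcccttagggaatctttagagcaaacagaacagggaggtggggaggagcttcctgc
C1rl: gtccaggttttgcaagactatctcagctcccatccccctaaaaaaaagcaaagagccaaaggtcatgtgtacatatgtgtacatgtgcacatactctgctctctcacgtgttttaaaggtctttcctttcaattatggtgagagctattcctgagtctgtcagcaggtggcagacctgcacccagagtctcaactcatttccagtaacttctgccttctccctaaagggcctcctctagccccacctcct
Promoter sequences were held for C1s1, C1ra and C1rl of the 9 genes. C1s1 had a further start site, whose window (chr6:124542322-124542571) is not shown but was searched too. None of 5 motifs was found on either strand of these windows: the interferon response element (GAAA, 2 bases of any kind, GAAA), the STAT element TTCNNNGAA, the cAMP response element TGACGTCA, the AP-1 element TGANTCA, and the C/EBP element TTGCGCAA. The same searches matched 2.98%, 7.02%, 1.55%, 6.75% and 0.164% of 32851 promoters of that length.

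In treated Pthrp+/+ TOs, C4b, Cfb and Serping1 were called lower at 0g (3 of 6, against 4.91% of all genes). C4b read 7.10 and 6.78 at 1g and 6.48 and 6.13 at 0g (-0.63 ± 0.17, adjusted p = 0.0354). Cfb read 6.74 and 7.10 at 1g and 5.86 and 6.09 at 0g (-0.94 ± 0.18, adjusted p = 0.0048), so it stayed within detection there. Serping1 read 11.72 and 11.63 against 10.75 and 10.68 (-0.96 ± 0.10, adjusted p = 5.63e-05). The C4b call was lost without the first 1g array (-0.47, adjusted p = 0.314) or the second 0g array (-0.45, adjusted p = 0.329), with the authors' values (-0.18, adjusted p = 0.0617), with no filter on dim probes (adjusted p = 0.0552) and with only the conditions compared in the fit (adjusted p = 0.0624), and the Cfb call without the first 0g array (-0.83, adjusted p = 0.0691) or the second 1g array (-0.76, adjusted p = 0.0755). For C1s, C2 and C1rl the 5 probes differed by -0.12 to -0.02 and none passed. In Pthrp+/+ TOs the summed macrophage marker level was 121000 to 122000 at 1g and 88800 to 89500 at 0g untreated, and 109000 to 116000 and 102000 to 104000 treated. The sum was thus lower at 0g in both, and its part in the falls of the complement genes was not tested.

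In Pthrp-/- TOs no member passed as lower at 0g. Serping1 alone among the 6 was called, and it rose; none was called lower, against 4.79% of all genes untreated and 4.22% treated. Untreated it read 10.08 and 10.12 at 1g and 10.63 and 10.48 at 0g (0.45 ± 0.10, adjusted p = 0.0147, with 5.81% of all genes called higher), and treated 10.14 and 10.09 against 10.55 and 10.68 (0.50 ± 0.10, adjusted p = 0.00671, 5.54% higher). The 0g arrays lay above the 1g arrays in both. The untreated call was lost without the first 0g array (0.38, adjusted p = 0.0821) or either 1g array (0.43 and 0.47, adjusted p = 0.0833 and 0.0726), and the treated call without the second 0g (0.44, adjusted p = 0.0824) or the second 1g array (0.48, adjusted p = 0.0647). Both were lost with only the conditions compared in the fit (adjusted p = 0.252 untreated and 0.0553 treated). Untreated, the summed macrophage marker level was 1510 to 1560 at 1g and 1120 to 1230 at 0g. Treated, it was 1400 to 1460 and 1710 to 1880. The summed level of 9 fibroblast markers was 8240 to 9140 at 1g and 13400 to 14400 at 0g untreated. With treatment that sum was 10000 to 10100 at 1g and 15700 to 16300 at 0g. The part of either list in the rise of Serping1 was not tested. The other 7 probes differed by -0.07 to 0.39 and did not pass. The first C1s probe was called higher in treated TOs without the first 1g array (0.66, adjusted p = 0.0258). A fall at 0g could hardly have been seen for most of them: Cfb and the second C1s probe were below detection on all 8 Pthrp-/- arrays, the second C1rl probe on 7, the first C1s probe on 4, among them both untreated 1g arrays, and C4b stood at the detection level at 1g (4.81 to 5.33). C2, Serping1 and the first C1rl probe were detected on all 8.

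The gravity response was set against that of the other genotype for each gene, and C2 and Serping1 are the genes with a called difference that were detected on all arrays of both genotypes. Over both treatments, the difference (Pthrp-/- response minus Pthrp+/+ response) was called above 0 for C1s, C2, C4b, Cfb and Serping1, against 16.4% of all genes. It was 1.65 ± 0.10 for Serping1 (adjusted p = 6.3e-08), 1.5 ± 0.17 for C4b (adjusted p = 1.7e-05) and 1.75 ± 0.18 for Cfb (adjusted p = 7.3e-06). It was 0.80 ± 0.18 and 0.64 ± 0.16 for the probes of C1s (adjusted p = 0.0051 and 0.0094) and 0.45 ± 0.11 for C2 (adjusted p = 0.0097). For C1rl it was 0.07 ± 0.18 and -0.04 ± 0.17. With the gravity labels of the Pthrp-/- arrays exchanged, C4b (0.89) and Serping1 (0.69) still passed, and C1s and C2 did not. Cfb also passed (1.60), but every Pthrp-/- array was below detection, so for Cfb the exchange swapped only readings below detection. For Cfb and the second C1s probe the difference restates the fall in Pthrp+/+ TOs, and C4b, at the detection level in Pthrp-/- TOs at 1g, had little room to fall there.

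**Figure D3:**
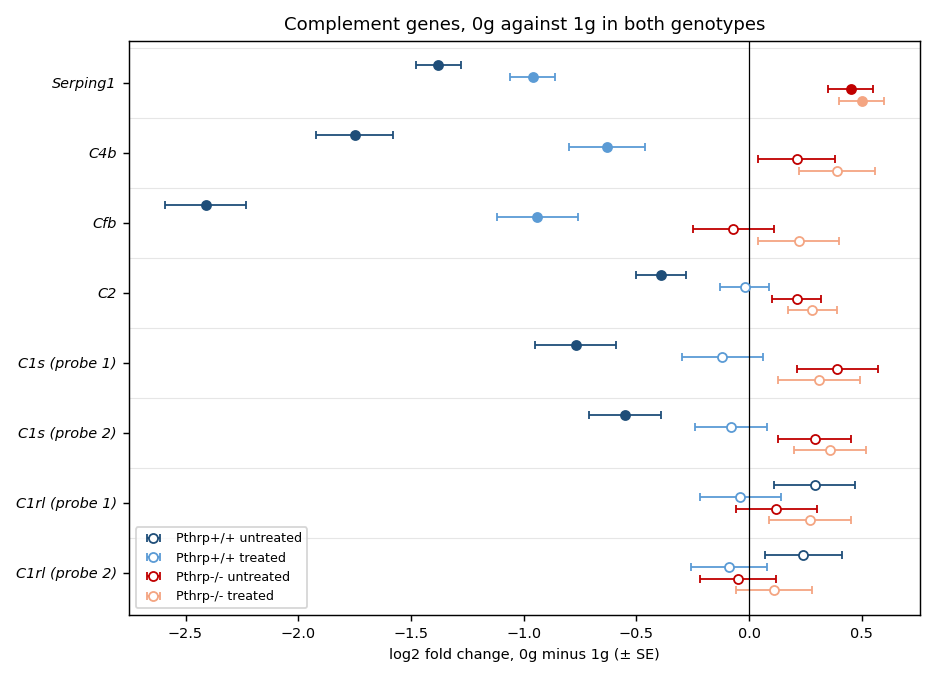
Log2 fold change at 0g against 1g (horizontal axis, points with SE bars) for the 8 tested probes (vertical axis) in Pthrp+/+ (blue) and Pthrp-/- TOs (red), untreated and treated, filled where the adjusted p was under 0.05. Cfb, C4b and Serping1 lie below 0 in both Pthrp+/+ settings, and Serping1 lies at 0.45 and 0.50 in Pthrp-/- TOs.

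Intermittent PTHrP1-36 raised Cfb in Pthrp+/+ TOs at 0g. Untreated arrays read 4.77 and 4.95 and treated arrays 5.86 and 6.09, a level 2.17-fold higher (1.12 ± 0.18, adjusted p = 0.00229). Treated 0g arrays still lay below the untreated 1g arrays (7.03 and 7.52). The second C1s probe rose from 5.45 and 5.16 to 5.94 and 5.87 (0.60 ± 0.16, adjusted p = 0.0412), and the first read 5.75 and 5.52 untreated and 6.14 and 6.20 treated (0.53 ± 0.18, adjusted p = 0.104). The groups did not overlap for either probe. These were 2 of 6 genes, against 5.37% of all genes called higher. With the authors' normalized values neither gene passed (Cfb 0.17, adjusted p = 0.12). The call of the second C1s probe was lost when any of 10 arrays was left out, among them each array of both conditions compared, at 0.46 to 0.75 over all 16 arrays left out in turn (adjusted p up to 0.206). Without either treated Pthrp-/- array at 1g, which are among the 10, the first probe passed instead (0.53, adjusted p = 0.0251). C4b (0.18 ± 0.17), C2 (0.15 ± 0.11), C1rl and Serping1 did not pass. The summed macrophage marker level was higher in the treated arrays (102000 to 104000) than in the untreated (88800 to 89500), and 8 of the 20 markers were called higher. The summed level of 9 fibroblast markers was also higher (23100 to 23900 treated, 16200 to 18700 untreated), with 4 called higher and 1 lower. The part of either list in the rise of Cfb and C1s was not tested.

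At 1g the peptide lowered C4b in Pthrp+/+ TOs. Untreated arrays read 8.03 and 7.73 and treated arrays 7.10 and 6.78, a level 1.92-fold lower (-0.94 ± 0.17, adjusted p = 0.021). The call was lost without any 1 of these 4 arrays, at -0.79 and -1.09 without the first and second untreated array (adjusted p = 0.283 and 0.055) and -1.11 and -0.78 without the first and second treated array (adjusted p = 0.0524 and 0.29). Of all genes, 0.584% were called lower in this comparison. Serping1 read 12.20 and 12.06 untreated and 11.72 and 11.63 treated (-0.45 ± 0.10, adjusted p = 0.0767) and passed with the authors' values (-0.44, adjusted p = 0.00388), and Cfb differed by -0.35 ± 0.18 (adjusted p = 0.531). The response to the peptide differed between 0g and 1g for C4b (1.12 ± 0.24, adjusted p = 0.023) and Cfb (1.47 ± 0.25, adjusted p = 0.0075), 2 of 6 genes against 2.46% of all genes. The C4b call was lost without any of 4 Pthrp+/+ arrays (0.94 to 0.98, adjusted p = 0.0901 to 0.124): the first untreated or first treated array at 0g, or the first untreated or second treated array at 1g. The Cfb call was lost with the authors' values (0.29, adjusted p = 0.11). In Pthrp-/- TOs no member passed for the peptide, with differences of -0.26 to 0.17 over the 8 probes. Of all genes 1.98% were called higher and 1.72% lower there at 1g, and 1.29% and 1.24% at 0g. The difference between the genotypes' responses to the peptide at 0g did not pass for any member (Cfb -1.03 ± 0.25, adjusted p = 0.056, or 0.0441 without either untreated Pthrp+/+ array at 1g and 0.0487 without the second untreated Pthrp-/- array at 0g), against 0.939% of all genes called above 0 and 1.44% below.

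**Figure D4:**
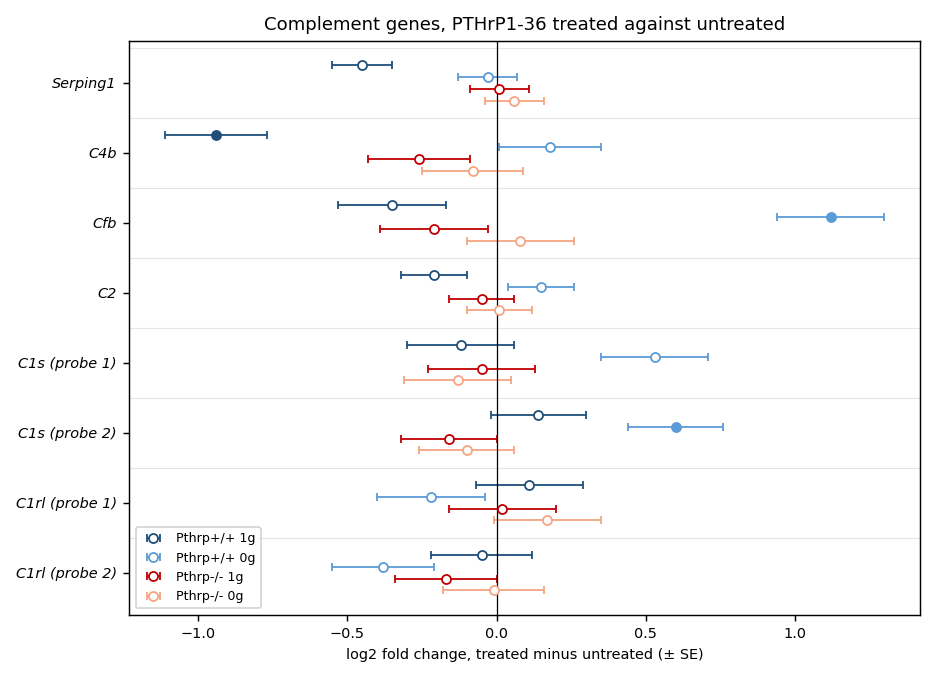
Log2 fold change with PTHrP1-36 against untreated (horizontal axis, points with SE bars) for the 8 tested probes (vertical axis) at 1g and 0g in both genotypes, filled where the adjusted p was under 0.05. Cfb (1.12) and the second C1s probe (0.60) at 0g and C4b (-0.94) at 1g in Pthrp+/+ TOs are the filled points.

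Over the 8 conditions the genes kept different orders. Mean Serping1 was highest in untreated (12.13) and treated (11.68) Pthrp+/+ TOs at 1g, then 10.74 and 10.72 in untreated and treated Pthrp+/+ TOs at 0g, 10.62 and 10.55 in treated and untreated Pthrp-/- TOs at 0g, and 10.11 and 10.10 at 1g. Neighbours among the 4 conditions at 0g did not differ past the test. Mean C2 fell into a Pthrp+/+ level of 7.86 to 8.24 and a Pthrp-/- level of 5.93 to 6.21. Mean C4b ran from 7.88 in untreated Pthrp+/+ TOs at 1g through 6.94 (treated, 1g), 6.30 and 6.13 (treated and untreated, 0g) to 4.95 to 5.43 in Pthrp-/- TOs.

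Within the 8 Pthrp+/+ arrays, C4b and Serping1 correlated at r = 0.95 and C1s and Cfb at 0.94, while C1rl ran against the other 5 genes (-0.52 to -0.85). Within the 8 Pthrp-/- arrays C2 and Serping1 correlated at 0.94. These describe arrays that share conditions, and they carry no test. The genes whose levels ran most like each member over the 16 arrays were, for C4b, Hp (r = 0.984), Itgam (0.977) and Lbp (0.974); for Cfb, Il1r2 (0.984), Angptl1 (0.984) and Cysltr1 (0.98); for Serping1, Il6st (0.972), Cd47 (0.967) and Ripor3 (0.96). For C2 they were Zranb3 (0.996), Cxcl16 (0.995) and Fermt3 (0.994), for C1s Ncapd2 (0.973), Tyms (0.971) and Rab8b (0.969), and for C1rl 6330403K07Rik (0.945), Slc7a8 (0.943) and Hoxb7 (0.943). Much of each r is the step between genotypes: Slc7a8 ran against C1rl within Pthrp+/+ arrays (-0.38), whereas Hp had an r with C4b of 0.96 within Pthrp+/+ arrays and, by this probe, was not detected on any Pthrp-/- array.

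Of 51 other complement genes, 44 had a named probe and 25 were tested. At 0g in untreated Pthrp+/+ TOs 12 were called lower and 3 higher (median -0.20, against 0.04 over all tested genes, of which 14.2% were lower and 14.3% higher), and with ablation at 1g 12 were lower and 4 higher (median -0.35, or -0.33 with bounds, against 0.12, with 22.9% of all genes lower and 33.0% higher). The subunits of C1q, the recognition protein that carries C1r and C1s, were not detected on any Pthrp-/- array, and at 1g C1qa was at least 29.2-fold, C1qb at least 227-fold and C1qc at least 179-fold lower there. At 0g in Pthrp+/+ TOs they were lower by -1.79, -1.21 and -1.13. Fcna, a ficolin of the lectin pathway, was lower by -2.07 ± 0.15 at 0g and at least 9.38-fold lower with ablation. The macrophage receptor Vsig4 (at least 2.18-fold, adjusted p = 1.21e-06) and the C5a receptor C5ar1 (at least 1.4-fold, adjusted p = 0.00795) were also called lower at 0g, where both were below detection. C1s2 was lower at 0g (-0.54, adjusted p = 0.0284) and at least 1.52-fold lower with ablation. These genes, with Itgam and Itgb2, were lower at 0g in untreated Pthrp+/+ TOs, where the summed macrophage level given above was lower too. Itgam and Itgb2 are subunits of a complement receptor and are themselves part of that sum. With the peptide at 0g the sum was higher, but C1s2 did not pass (0.0, adjusted p = 0.998). The part of the macrophage level was not tested.

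Regulators and terminal components went several ways. Clu (clusterin, which binds the terminal complex) was lower by -3.02 at 0g and -1.16 with ablation, and it rose by 0.47 with the peptide at 0g and was lower by -1.34 with it at 1g. Cd55, which dissociates the C3-cleaving enzymes, was lower at 0g (-0.60, adjusted p = 0.0014) but higher with ablation (0.39, adjusted p = 0.0108). Cd59a, which blocks the terminal complex, was higher in both (0.36 and 0.25), and Cd59b was higher at 0g (0.60). Of the terminal components, C8b was higher in both (0.71 and 1.58) and C8g lower in both (-0.63 and -0.39). With the peptide at 0g, C1qa, C1qb, C1qc, Clu, Fcna and Vsig4 were called higher, 6 of 25, and none lower, against 5.37% of all genes higher and 3.61% lower; Vsig4 was below detection without the peptide.

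**Figure D5:**
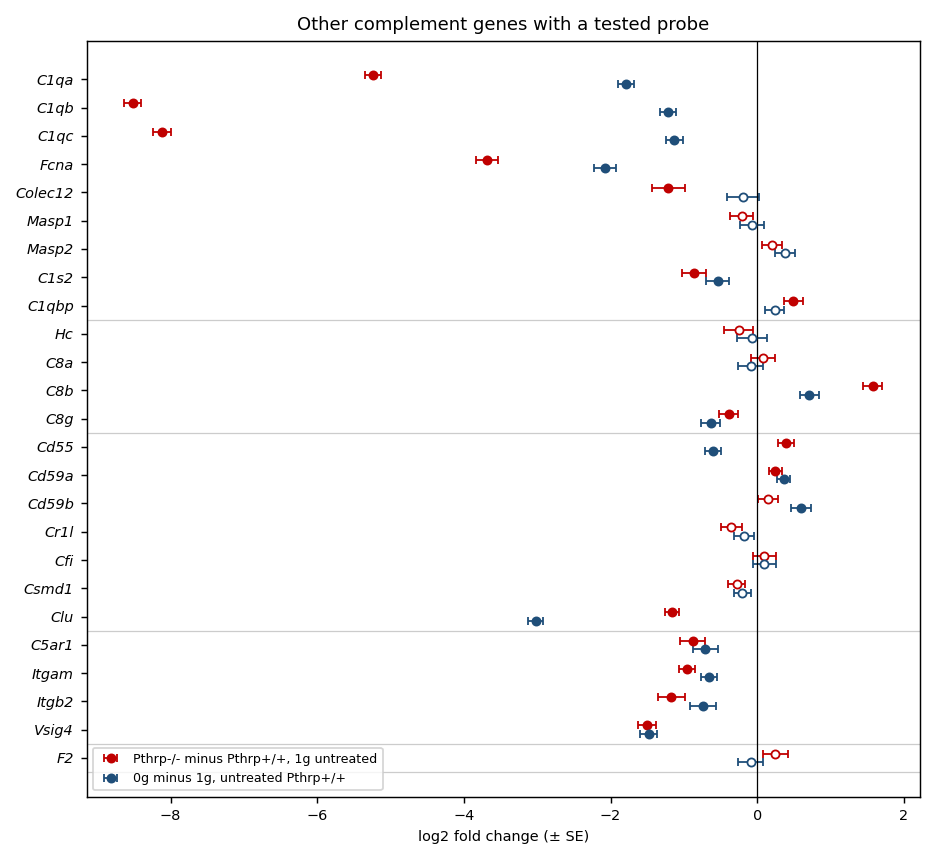
Log2 fold change (horizontal axis, points with SE bars) of the 25 other complement genes with a tested probe (vertical axis, 1 probe each, that with the highest mean), at 0g against 1g in untreated Pthrp+/+ TOs (blue) and in Pthrp-/- against Pthrp+/+ TOs at 1g untreated (red), filled where the adjusted p was under 0.05; the 2 comparisons share the Pthrp+/+ arrays at 1g. C1qa, C1qb, C1qc and Fcna lie far below 0 with ablation, where they were below detection in Pthrp-/- TOs and the fitted values are not bounds, and C8b lies above 0 in both. Vsig4, C5ar1 and Itgam were also below detection at 0g.

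Genes of the settings in which complement is known to be induced were counted beside them, to be read against the shares of all genes given above (14.2% lower and 14.3% higher at 0g, 22.9% and 33.0% with ablation). Of 21 tested interferon-stimulated genes 15 were lower and none higher at 0g in untreated Pthrp+/+ TOs (median -0.65), and 19 were lower with ablation at 1g (median -2.10, or -1.94 with bounds). Ifit3 (-0.93 and -2.03) and Gbp2 (-0.65 and -3.02) were lower in both, and Ifi27 did not pass at 0g (0.26). With the peptide in Pthrp+/+ TOs at 1g, 10 of the 21 were lower and none higher, against 0.584% of all genes lower. With it at 0g, 2 were lower and none higher, against 3.61% of all genes lower. Of 17 NF-kB and acute-phase genes 5 were lower and 3 higher at 0g (median -0.14), and 14 were lower and 1 higher with ablation (median -0.97). Cxcl1, a chemokine, was higher at 0g (0.37, adjusted p = 0.0333) and lower with ablation (-5.05). Of 10 tested genes that flank C2, Cfb and C4b on chromosome 17, 2 were higher and none lower at 0g (median 0.13), and 4 were higher and none lower with ablation (median 0.04). The level of fibroblast markers also moved: 7 of 9 were lower and 1 higher at 0g, and 8 were lower and 1 higher with ablation. Dcn was at -1.32 and -4.23 and Lum at -2.13 and -4.46. Their summed level was 35900 to 37100 in untreated Pthrp+/+ TOs at 1g, 16200 to 18700 at 0g, 8240 to 9140 in untreated Pthrp-/- TOs at 1g and 13400 to 14400 at 0g. Of 10 osteoblast markers 4 were lower and 1 higher at 0g, and 7 were lower with ablation; their summed level was 27600 on both untreated Pthrp+/+ arrays at 1g, 20000 to 25900 at 0g, 17600 to 18200 in untreated Pthrp-/- TOs at 1g and 22800 to 22900 at 0g. Of 6 adipocyte markers 3 were lower and 1 higher at 0g, and 4 were lower and 1 higher with ablation; their summed level in the same order was 18100 to 19100, 12000 to 12200, 3000 to 3210 and 2920 to 3340, and the defining markers Fabp4 and Plin1 were not detected on any array. Among 4 osteoclast markers 1 was lower and none higher at 0g, and 2 were higher and 1 lower with ablation. Among 5 chondrocyte markers 2 were higher and 2 lower at 0g, and 2 were higher and none lower with ablation. In untreated TOs at 1g the osteoclast sum was 6380 to 6770 in Pthrp+/+ and 7690 to 7800 in Pthrp-/-. The chondrocyte sum there was 815 to 940 and 1100 to 1210. The part of any of these lists in the complement values was not tested.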

How the data were processed

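Total RNA of TOs was read on 16 arrays (Illumina Mouse Ref-8 v2.0). The deposited bead-summarised intensities were not normalized by the authors and stand beside a detection p-value that the authors deposited for each. The authors' normalized log2 values, made with the lumi package, were also deposited and were used as an alternative. The bead summary software is not given in the sources used here. Of 25697 probes, 23978 had 1 gene symbol on the platform table.

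In R 4.3.3, neqc of limma 3.58.1 took the detection p to model background, added an offset of 16 and applied quantile normalization and log2. Probes with a detection p under 0.05 on at least 2 arrays were tested (15279), with lmFit and eBayes on 8 condition means (8 residual degrees of freedom, prior 4.978), Benjamini-Hochberg adjusted over all of them. The steps were tested on simulated data. Where a probe was below detection on every array of a group, the fold was taken against the higher of the lowest detected level and the probe's own level on each array. Tables and figures used Python 3.11.15, pandas 2.3.3 and matplotlib 3.10.9.

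The members, lists and tests were chosen with earlier results of these data known. All 9 members were named, with the 3 genes of highest r for each, other complement genes that passed, and up to 4 high-level genes of a list. The precision rests on 2 arrays per condition. The p-values measure the spread between replicate arrays, pooled over the 8 conditions and shared in part over probes by eBayes. Alternatives were other background, normalization, filter, test and sample choices, the authors' values, a replicate block, leaving out each array, and exchanged gravity labels.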

Additional observations from a re-analysis of the deposited data

Results flagged for a closer look

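The response to 0g differed between Pthrp-/- and Pthrp+/+ TOs by a test of the difference itself (Pthrp-/- minus Pthrp+/+, log2 scale). In untreated TOs it was 2.34 for Cfb, 1.97 for C4b, 1.84 for Serping1, 1.17 and 0.84 for the first and second C1s probes and 0.60 for C2. In treated TOs it was 1.46 for Serping1, 1.16 for Cfb and 1.03 for C4b. Over both treatments it was 1.75 for Cfb, 1.65 for Serping1, 1.5 for C4b, 0.80 and 0.64 for the C1s probes and 0.45 for C2. With the gravity labels of the Pthrp-/- arrays exchanged, none of the 3 passed in treated TOs (Serping1 0.46, Cfb 0.72, C4b 0.24), and in untreated TOs C1s (0.38 and 0.25) and C2 (0.17) did not. The C4b difference in treated TOs was also lost without the first treated Pthrp+/+ array at 1g, the second at 0g or the second treated Pthrp-/- array at 1g (0.85 to 0.88). It did not pass with the authors' values either (0.23, adjusted p = 0.0722). In untreated TOs the C2 difference was lost without the first Pthrp+/+ or the first Pthrp-/- array at 0g (0.46 and 0.47). That of the second C1s probe was lost without any of 4 arrays (0.59 to 0.73). These were the first Pthrp+/+ array at 1g, the second at 0g, and the first Pthrp-/- array at either gravity. With only the conditions compared in the fit, neither passed (adjusted p = 0.0906 for C2 and 0.0666 for the second C1s probe). The second C1s probe also did not pass with the authors' values (0.14, adjusted p = 0.0592). Cfb and the second C1s probe were below detection on all 8 Pthrp-/- arrays. Their differences restate the fall in Pthrp+/+ TOs, and for them the exchange swapped only readings below detection. C4b stood at the detection level in Pthrp-/- TOs at 1g (4.81 to 5.33).

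In Pthrp+/+ TOs the response to PTHrP1-36 differed between gravities (0g minus 1g), by 1.47 for Cfb and 1.12 for C4b. As given above, the C4b call was lost without any of 4 Pthrp+/+ arrays and the Cfb call with the authors' values (0.29, adjusted p = 0.11).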

How the results depend on the processing

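Leaving out each array in turn gave 4 to 5 members lower at 0g in untreated Pthrp+/+ TOs, 6 to 6 lower with ablation at 1g and over all conditions, 5 to 5 for the genotype by gravity difference and 1 to 2 higher with the peptide at 0g. The count with the peptide at 0g, 2, was 1 with no background correction, with no filter on dim probes, with detection on at least 8 arrays, with only the conditions compared in the fit and with the trend and robust setting, and 0 with the authors' values. With the gravity labels of the Pthrp-/- arrays exchanged, an alternative chosen after seeing the data, the genotype by gravity count was 3; the second C1s probe and C2 turned to -0.01 and -0.04. The C2 fall at 0g did not pass with only the conditions compared in the fit (adjusted p = 0.116). Over the 18 comparisons with their 8 probes, leaving out an array changed a call in 63 of 2304 values, the authors' values in 13 of 144 and fits to the conditions compared only in 10 of 144, all with the direction kept. The cause was not tested.

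The replicate numbers are not said to pair the arrays. Same-numbered deviations correlated at r of -0.301 to 0.215 over 28 pairs of conditions, with 7 over 0.1. Within a genotype r was -0.021 to 0.215 over 12 pairs (median 0.081), with 5 over 0.1. The replicate block gave 5, 6, 6, 5 and 2 members in the same comparisons and changed no call. With cyclic loess in place of quantile normalization, 60.9% of the genes called at 0g were lower (49.9% in the main fit) and 54.9% of those called with ablation at 1g (41%), with the median over all genes at -0.01 in place of 0.12; no member's call changed. Over all conditions 52% of genes called with ablation were lower (39%), and 41.3% (51.4%) for the genotype by gravity difference. Probes near the detection level limit what can be read of C1s, Cfb and C1rl in Pthrp-/- TOs.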
